A study of Homo sapiens with 9 samples.

Results

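GAS5 and 9 further host transcripts of small nucleolar RNAs (SNHG1, SNHG3, SNHG5, SNHG6, SNHG7, SNHG8, SNHG12, SNHG15 and ZFAS1) were described in H2030 cells after knockdown of the actin regulator ENAH or of its exon 11a. These 10 genes of 29972 in the deposited table were selected on their names, with the measured values of these same 9 libraries already known. Their levels, fold changes and calls are therefore given as a description, with no p-value, and nothing about the members is read from how many were called. All 10 members were in the table and all 10 passed the filter on low values.

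Small nucleolar RNAs (snoRNAs) guide chemical modification of ribosomal RNA: box C/D snoRNAs direct methylation of the ribose and box H/ACA snoRNAs direct pseudouridylation. Most human snoRNAs are cut from the introns of a host transcript, and the spliced remainder of a non-coding host is usually unstable. Several such hosts start with a terminal oligopyrimidine (TOP) tract like ribosomal protein genes, are loaded onto ribosomes and are removed by nonsense-mediated decay, which links their level to translation and growth. GAS5 was named as a growth arrest-specific transcript, first found in growth-arrested mouse fibroblasts.

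H2030 is an established human line of non-small cell lung cancer. Cells of all 3 groups were transfected with 20 nmol/L of siRNA with the lipid reagent Lipofectamine RNAiMAX. The siMENA11a group received a mix of 3 siRNAs against exon 11a of ENAH, the siMENA group a commercial siGENOME pool against ENAH transcripts in general, and the control group a non-targeting ON-TARGETplus pool, so that the siMENA and control pools came from different reagent lines. Each group had 3 libraries of ribosome-depleted total RNA, and the labels do not say that they came from separate cultures, so p-values measure only the spread between libraries, which may be technical. ENAH encodes hMENA, and the isoform with exon 11a is named hMENA11a.

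Values are TPM (transcripts per 1000000, a level per transcript length) divided by a size factor per library, called scaled TPM below, and depth is unknown because TPM does not keep it. The number of genes at 1 TPM or more was 12258 to 12520 per library. ENAH, the targeted gene, averaged 47.6 scaled TPM in siMENA11a libraries, 7.22 in siMENA libraries and 43.8 in control libraries. This value sums isoforms and so does not measure exon 11a, and its log2 difference between siMENA11a and control was 0.12 on scaled TPM but -0.014 in TPM as deposited. The 4 epithelial markers summed to 300.1 to 313 scaled TPM in siMENA11a libraries, 308 to 327 in siMENA libraries and 345 to 359 in control libraries, sums carried by KRT18 and KRT8, with KRT19 under 1 in all 9. EPCAM went the other way, at 2.90 scaled TPM after siMENA11a, 3.10 after siMENA and 1.46 in control (limma adjusted p = 0.000325 and 0.000222 for siMENA11a and siMENA against control). Of the 4 leukocyte markers, 2 were listed at 0 in all 9 libraries, CD3E among them, and 3 were under 1 in all 9. The leukocyte markers summed to 1.60 to 2.24 scaled TPM in siMENA11a libraries, 0.739 to 0.923 in siMENA libraries and 1.21 to 1.30 in control libraries. The 3 fibroblast markers summed to 6.29 to 6.59 scaled TPM after siMENA11a, 13.9 to 15.7 after siMENA and 7.39 to 8.36 in control, nearly all of it COL1A1. The 3 endothelial markers summed to 0.55 to 0.587, 0.973 to 1.18 and 0.513 to 0.672 in the same order of groups, and the part of these markers in the results was not tested. The RN7SL genes, abundant structured RNAs, took 44.3% to 45.2% of TPM in siMENA11a libraries, 39.6% to 40.6% in siMENA libraries and 39.7% to 41.1% in control libraries. The median gene of TPM as deposited was shifted by -0.11 on the log2 scale for siMENA11a against control, by 0.09 for siMENA against control and by -0.20 for siMENA11a against siMENA. The cause of these shifts was not tested, and the direction of small changes depends on the scaling. For siMENA11a against control 3770 genes were called higher and 3733 lower on scaled TPM, against 1965 and 4904 in TPM as deposited and 5014 and 2912 after rescaling without small and structured RNAs. For siMENA against control the split was 3196 and 3478 on scaled TPM, 3979 and 2300 as deposited and 5217 and 2318 rescaled. For siMENA11a against siMENA it was 3984 and 3937 on scaled TPM, 2030 and 6321 as deposited and 3709 and 4462 rescaled.

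RefSeq places 36 snoRNAs inside the 10 members. GAS5 holds 10 box C/D snoRNAs and 1 box H/ACA snoRNA, SNHG1 holds 8 box C/D snoRNAs, ZFAS1 holds 3, SNHG5 holds 2 and SNHG6 holds 1. SNHG12 holds 1 box C/D snoRNA and 3 box H/ACA snoRNAs, while SNHG3 and SNHG7 hold 2 box H/ACA snoRNAs each and SNHG8 and SNHG15 hold 1 each. Per GENCODE 29 on GRCh38, GAS5 lies on the minus strand at chr1:173863900-173868882, has 29 annotated transcripts with up to 13 exons, and overlaps ZBTB37 on the annotation. SNHG12 (chr1:28578538-28583132, minus strand) overlaps TRNAU1AP, SNHG3 (chr1:28505980-28510892, plus strand) overlaps RCC1, SNHG7 (chr9:136721366-136728184, minus strand) overlaps FAM69B, and ZFAS1 (chr20:49278178-49295738, plus strand) overlaps ZNFX1. The library kit marks strand, but whether the authors' quantification used it is not given in the sources used here, so part of the signal of these members and of SNHG6, which overlaps MCMDC2, cannot be told apart from that of the overlapping gene.

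The start regions of the hosts are shown because a pyrimidine tract at the start is the sequence feature that defines a TOP transcript. RefSeq promoter windows (GRCh38.p14) were searched for 8 of the 10 members. SNHG6 and SNHG15 were left out of the members searched, so nothing is said about their promoter windows. Each line gives 100 bases on the gene's own strand, 50 before the annotated start and 50 from it on, with capitals marking a TATAA word and the run of a C and at least 4 further pyrimidines within 5 bases of the start. SNHG5 is read at chr6:85678684-85678783 on the minus strand, SNHG7 at chr9:136728135-136728234 on the minus strand, SNHG8 at chr4:118278712-118278811 on the plus strand, SNHG12 at chr1:28581824-28581923 on the minus strand and ZFAS1 at chr20:49278592-49278691 on the plus strand.
SNHG5: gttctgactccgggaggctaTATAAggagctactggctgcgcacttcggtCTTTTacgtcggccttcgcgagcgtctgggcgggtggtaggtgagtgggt
SNHG7: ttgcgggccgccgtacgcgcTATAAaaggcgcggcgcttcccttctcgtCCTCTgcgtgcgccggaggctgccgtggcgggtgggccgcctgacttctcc
SNHG8: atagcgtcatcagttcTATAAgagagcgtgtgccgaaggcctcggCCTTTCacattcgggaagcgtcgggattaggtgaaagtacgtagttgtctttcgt
SNHG12: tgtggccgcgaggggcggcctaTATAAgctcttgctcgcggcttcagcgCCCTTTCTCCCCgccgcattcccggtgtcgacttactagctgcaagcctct
ZFAS1: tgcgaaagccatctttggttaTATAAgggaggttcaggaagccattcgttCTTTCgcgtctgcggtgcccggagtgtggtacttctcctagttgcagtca

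In these 5 windows the pyrimidine run was 5 to 12 bases long, longest in SNHG12, and a TATAA word began 28 to 34 bases before the start. Both were searched on the gene's strand only. The run began at the annotated start in SNHG5 and ZFAS1, 1 base before it in SNHG7 and SNHG12, and 5 bases before it in SNHG8. Of all 35116 RefSeq promoter windows, 21.1% held such a run near the start, 3.91% held TATAA within 40 to 20 bases before it, and 0.832% held both. The TATAA word was searched after these sequences had been seen. The windows of GAS5, SNHG1 and SNHG3 held neither at the RefSeq start. Those of SNHG1 (chr11:62855836-62855935, minus strand) and SNHG3 (chr1:28505893-28505992, plus strand) are shown for comparison, without capitals. Among annotated GENCODE transcripts, 1 of 25 of SNHG1 and 1 of 3 of SNHG3 nevertheless open with such a run. The counts were 3 of 5 for SNHG6, 3 of 10 for ZFAS1, 4 of 17 for SNHG12, 3 of 23 for SNHG5 and 1 of 5 for SNHG8. They were 0 of 4 for SNHG7 and 0 of 10 for SNHG15. For GAS5, 6 of the 29 GENCODE transcripts start further downstream at chr1:173867989 on the minus strand of GRCh38, and the first 30 bases from that start, chosen after the sequences were seen, open with a run of 6 pyrimidines in capitals.
SNHG1: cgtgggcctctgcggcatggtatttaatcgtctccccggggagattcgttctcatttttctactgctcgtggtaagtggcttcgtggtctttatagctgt
SNHG3: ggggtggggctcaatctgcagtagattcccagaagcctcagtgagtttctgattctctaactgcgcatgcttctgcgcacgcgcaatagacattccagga
GAS5: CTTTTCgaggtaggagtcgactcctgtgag

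Among the 10 members GAS5 had the largest fold change in siMENA11a against control. It was highest after siMENA11a, intermediate after siMENA and lowest in control. GAS5 measured 62.4, 65.3 and 62.0 scaled TPM in the siMENA11a libraries, 51.1, 45.8 and 42.9 in the siMENA libraries and 33.1, 35.1 and 34.2 in the control libraries. The 3 groups did not overlap: every siMENA11a library lay above every siMENA library, and every siMENA library above every control library. The means were 63.2 ± 1.79, 46.6 ± 4.14 and 34.1 ± 0.994 scaled TPM for siMENA11a, siMENA and control (SD, n = 3 each). The log2 fold change was 0.88 ± 0.058 (SE) for siMENA11a against control, 0.44 ± 0.058 for siMENA against control and 0.44 ± 0.058 for siMENA11a against siMENA. These put GAS5 at rank 325 of 13498 genes from the highest log2 fold change in siMENA11a against control, at rank 1031 in siMENA against control and at rank 2001 in siMENA11a against siMENA. In bulk RNA a change in the share of cells that hold a transcript and a change in its amount per cell cannot be told apart. In TPM as deposited, without a size factor, GAS5 measured 55.3, 59.4 and 60.3 TPM after siMENA11a, 53.9, 49.2 and 46.7 after siMENA and 32.9, 36.5 and 34.1 in control.

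**Figure D1:**
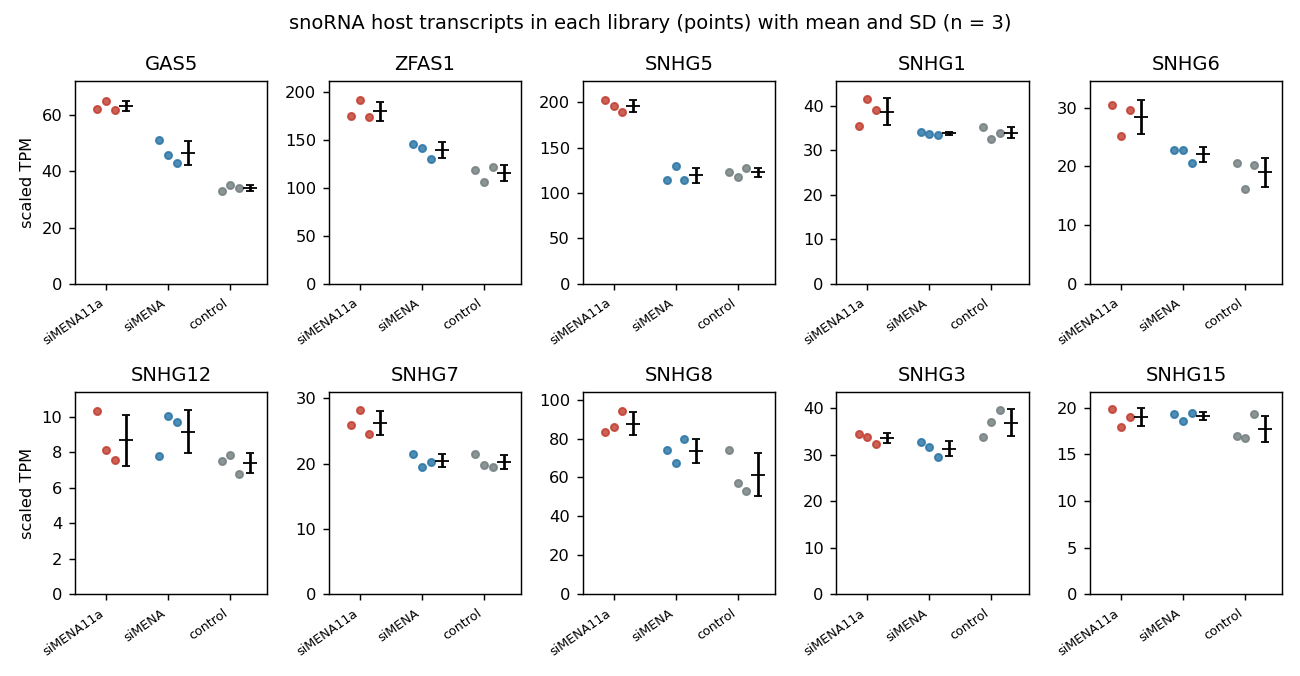
Scaled TPM (vertical axis, linear, from 0) of the 10 snoRNA host transcripts in the 3 siMENA11a, 3 siMENA and 3 control libraries (horizontal axis), with points for libraries and bars for the mean and SD. GAS5 and ZFAS1 separate all 3 groups, with GAS5 at 62.0 to 65.3 after siMENA11a, 42.9 to 51.1 after siMENA and 33.1 to 35.1 in control, whereas SNHG5 is high after siMENA11a alone.

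ZFAS1, a host of box C/D snoRNAs that lies antisense to the start of ZNFX1, had the same order of groups as GAS5. It measured 174, 191 and 173 scaled TPM in the siMENA11a libraries, 145, 142 and 130 in the siMENA libraries and 119, 106 and 121 in the control libraries. Again no library of one group reached into another. The log2 fold change of ZFAS1 was 0.64 ± 0.063 for siMENA11a against control, 0.27 ± 0.063 for siMENA against control and 0.37 ± 0.063 for siMENA11a against siMENA.

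SNHG5, which hosts a pair of box C/D snoRNAs and was the most abundant member in siMENA11a libraries, was called higher after siMENA11a and was not called after siMENA. Its levels were 202, 195 and 189 scaled TPM after siMENA11a, 115, 129 and 114 after siMENA and 123, 118 and 127 in control. The siMENA11a libraries stood above all 6 others, while the siMENA and control libraries overlapped. Its log2 fold change was 0.67 ± 0.052 for siMENA11a against control, -0.04 ± 0.052 for siMENA against control, and 0.71 ± 0.052 for siMENA11a against siMENA. Between siMENA11a and siMENA, SNHG5 had the largest fold change of the 10 members.

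SNHG1, with 8 box C/D snoRNAs and a start next to SLC3A2, differed by less. It measured 35.4, 41.5 and 39.2 scaled TPM after siMENA11a, 34.2, 33.8 and 33.5 after siMENA and 35.2, 32.7 and 34.0 in control. The lowest siMENA11a library was just above the highest control library, and the siMENA and control libraries overlapped. The log2 fold change was 0.18 ± 0.054 for siMENA11a against control, -0.00 ± 0.054 for siMENA against control and 0.19 ± 0.054 for siMENA11a against siMENA, and in TPM as deposited the last of these turned to -0.027. SNHG1 was called higher in siMENA11a against control, but not in TPM as deposited, without a filter on low values, without siMENA11a replicate 2 (0.14) or without control replicate 2 (0.16).

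SNHG6, host of 1 box C/D snoRNA, measured 30.5, 25.2 and 29.5 scaled TPM in siMENA11a libraries, 22.8, 22.8 and 20.5 in siMENA libraries and 20.6, 16.1 and 20.3 in control libraries. The siMENA11a libraries lay above the rest, and the highest control library just reached into the siMENA range. The log2 fold change was 0.57 ± 0.10 for siMENA11a against control, 0.22 ± 0.10 for siMENA against control and 0.36 ± 0.10 for siMENA11a against siMENA. The call against siMENA was lost in TPM as deposited (0.14) and without a filter on low values.

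Of the hosts of box H/ACA snoRNAs, SNHG7 and SNHG8 were higher after siMENA11a than in control. SNHG7 measured 26.0, 28.3 and 24.5 scaled TPM after siMENA11a, 21.5, 19.5 and 20.3 after siMENA and 21.5, 19.8 and 19.5 in control. The siMENA11a libraries were apart from the rest, and the siMENA and control libraries covered nearly the same range. Its log2 fold change was 0.36 ± 0.061 for siMENA11a against control, 0.01 ± 0.061 for siMENA against control and 0.35 ± 0.061 for siMENA11a against siMENA, where the call was lost in TPM as deposited (0.14). SNHG8 measured 83.1, 85.8 and 94.2 scaled TPM after siMENA11a, 73.9, 67.2 and 79.7 after siMENA and 73.9, 57.4 and 53.2 in control. One control library reached into the siMENA range, and the siMENA11a libraries lay above both other groups. The log2 fold change of SNHG8 was 0.52 ± 0.11 for siMENA11a against control, 0.27 ± 0.11 for siMENA against control and 0.25 ± 0.11 for siMENA11a against siMENA. Only the first of these was called, although the last also had libraries that did not overlap. In TPM as deposited the siMENA11a and siMENA libraries of SNHG8 did overlap, at 73.67 to 91.59 and 72.14 to 86.74 TPM. The SNHG8 value for siMENA11a against siMENA fell as low as 0.036 over the 18 alternative settings.

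SNHG3, host of a pair of box H/ACA snoRNAs, was the member that lay lowest relative to control. It measured 34.4, 33.9 and 32.4 scaled TPM after siMENA11a, 32.8, 31.6 and 29.5 after siMENA and 33.9, 37.1 and 39.7 in control. All siMENA libraries were below all control libraries, while siMENA11a overlapped both other groups. Its log2 fold change was -0.13 ± 0.060 for siMENA11a against control, -0.23 ± 0.060 for siMENA against control and 0.10 ± 0.060 for siMENA11a against siMENA. The lower call in siMENA against control was lost in TPM as deposited, after rescaling, after quantile normalisation and without a filter on low values, with a value as small as -0.11. In TPM as deposited SNHG3 was instead called lower in siMENA11a against control (-0.26), and its value for siMENA11a against siMENA turned to -0.12.

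On scaled TPM, SNHG12 and SNHG15 were not called in any of the 3 comparisons. SNHG12, the least abundant member and a host of both snoRNA classes, measured 10.3, 8.14 and 7.57 scaled TPM after siMENA11a, 7.78, 10.0 and 9.70 after siMENA and 7.53, 7.88 and 6.77 in control. SNHG15 measured 19.9, 17.97 and 19.0 scaled TPM after siMENA11a, 19.3, 18.6 and 19.5 after siMENA and 17.01, 16.7 and 19.3 in control. For both genes each pair of groups overlapped. The 95% intervals of the log2 fold change, not adjusted for the number of genes, for siMENA11a against control were -0.07 to 0.48 for SNHG12 and -0.03 to 0.23 for SNHG15, and for siMENA against control 0.01 to 0.56 and -0.02 to 0.24. The scaling changed these calls: after rescaling without small and structured RNAs both genes were called higher in siMENA11a against control (0.29 for SNHG12 and 0.18 for SNHG15). In TPM as deposited SNHG15 was called lower in siMENA11a against siMENA (-0.22), and its value for siMENA11a against control turned to -0.03.

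**Figure D2:**
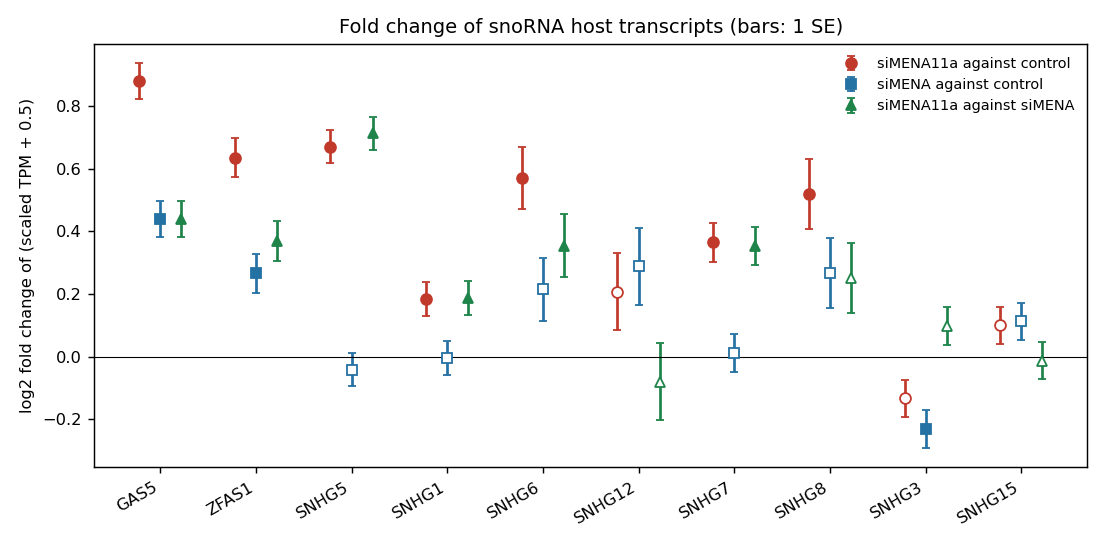
Log2 fold change of (scaled TPM + 0.5) on the vertical axis for each host transcript on the horizontal axis, with circles for siMENA11a against control, squares for siMENA against control, triangles for both knockdowns against each other, bars for 1 SE and filled symbols for calls at an adjusted limma p under 0.05. GAS5 has the highest siMENA11a and siMENA values against control (0.88 and 0.44), and SNHG5 lies at -0.04 for siMENA against control but at 0.71 for siMENA11a against siMENA.

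Set side by side, 7 of the 10 members (GAS5, ZFAS1, SNHG5, SNHG6, SNHG8, SNHG7 and SNHG1) were called higher in siMENA11a against control, 0 were called lower and 3 were not called. Of all 13498 genes tested, 55.6% were called in that comparison, 27.9% higher and 27.7% lower. The libraries did not overlap for 7 members, against 62.9% of all genes. The median log2 fold change of the members was 0.44, against 0.01 over all genes.

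In siMENA against control, GAS5 and ZFAS1 were called higher and SNHG3 lower, 7 members were not called, and libraries did not overlap for 3. Of all genes 49.4% were called, 23.7% higher and 25.8% lower, and 57.6% had libraries that did not overlap. The median of the members was 0.16, against 0.01 over all genes. The count of 3 called members became 6 in TPM as deposited and 6 after rescaling without small and structured RNAs, with GAS5, ZFAS1, SNHG6, SNHG8, SNHG12 and SNHG15 called higher under both and SNHG3 no longer called lower.

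In siMENA11a against siMENA, 6 members (SNHG5, GAS5, ZFAS1, SNHG6, SNHG7 and SNHG1) were called higher, 0 lower and 4 were not called, and libraries did not overlap for 7. Of all genes 58.7% were called, 29.5% higher and 29.2% lower, and 65.1% had libraries that did not overlap. The median was 0.30 for the members and 0.00 for all genes. Both knockdowns are set against the same control libraries, so their fold changes against control are not independent of each other. Because the members were chosen with these comparisons known, no reading is made of how these shares compare with those of all genes.

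GAS5 and ZFAS1 were called higher in all 3 comparisons under each of the 18 alternative settings tried. The GAS5 log2 fold change ranged over 0.75 to 0.97 for siMENA11a against control, 0.37 to 0.56 for siMENA against control and 0.22 to 0.51 for siMENA11a against siMENA. For ZFAS1 the ranges were 0.50 to 0.72, 0.21 to 0.40 and 0.15 to 0.40 in the same order of comparisons. SNHG5 was called higher in siMENA11a against control (0.54 to 0.75) and in siMENA11a against siMENA (0.50 to 0.77) under all 18, and in siMENA against control under 0 of them. SNHG6, SNHG7 and SNHG8 were called higher in siMENA11a against control under all 18 settings.

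**Figure D3:**
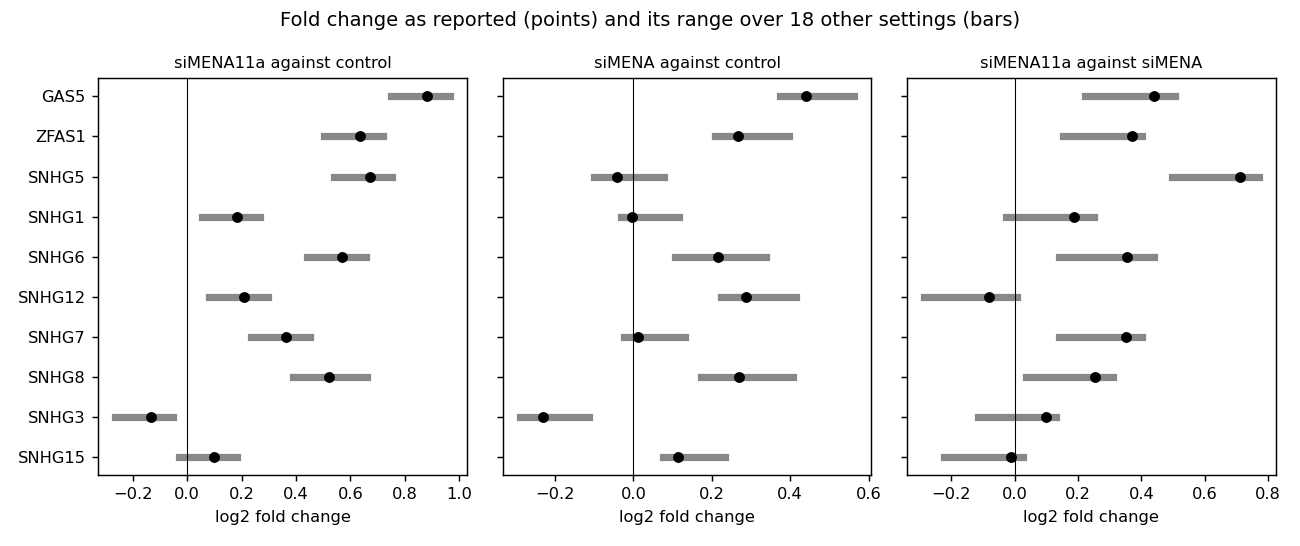
Log2 fold change (horizontal axis) of each host transcript (vertical axis) in 3 panels (each knockdown against control, then siMENA11a against siMENA), with points for the reported value and grey bars for the lowest to highest value over 18 other settings of scaling, pseudocount, filter, variance model, block and left-out library. The bars of GAS5 stay above 0 in all 3 panels, and those of SNHG5 cross 0 only in siMENA against control (-0.10 to 0.08).

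The order of the members by level was similar in the 3 groups. TPM is per length, so levels can be compared between genes. SNHG5 and ZFAS1 came first, with means of 196 and 180 scaled TPM after siMENA11a, 119 and 139 after siMENA and 123 and 115 in control, and their libraries overlapped in siMENA11a and in control. SNHG8 came next in each group, and SNHG15 and SNHG12 came last. GAS5 stood 4th after siMENA11a and after siMENA, clear of SNHG8 above it and SNHG1 below it. In control GAS5 stood 5th, and its libraries overlapped with those of SNHG3 above and SNHG1 below. The 10 members together summed to 671 to 692 scaled TPM in siMENA11a libraries, 499 to 523 in siMENA libraries and 447 to 484 in control libraries.

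The snoRNAs themselves were mostly listed at 0. Of the 36 placed inside the members 31 were in the table under the same name, and 25 of these were listed at 0 in all 9 libraries. Among the 25 were 24 of the 25 box C/D snoRNAs and thus every box C/D snoRNA of GAS5. The table also held SNORA17 and SNORA43, which the gene list used here assigns to SNHG7 and which are not among the 31. RefSeq names the snoRNAs of SNHG7 SNORA17A and SNORA17B, and a match by name cannot show whether these are the same. SNORA17 was above 0 in 5 libraries and SNORA43 in all 9. In TPM as deposited SNORA43 was at 83.24 to 126.33 after siMENA11a, 51.05 to 136.86 after siMENA and 39.68 to 107.29 in control, and its groups overlapped. A value of exactly 0 in a table without counts may be a failed estimate for so short an RNA, so it says nothing about the amount of the snoRNA. SNORD22 of SNHG1 was listed at 187, 204 and 142 scaled TPM after siMENA11a, 151, 71.6 and 85.2 after siMENA and 149, 33.5 and 246 in control, and its groups overlapped. SNORA73A of SNHG3 was listed at 941, 775 and 768 scaled TPM after siMENA11a, 672, 682 and 540 after siMENA and 610, 519 and 693 in control. The siMENA11a libraries of SNORA73A lay above all others, while the siMENA and control libraries overlapped. Its log2 fold change was 0.45 ± 0.13 for siMENA11a against control (limma adjusted p = 0.0127) and 0.39 ± 0.13 for siMENA11a against siMENA (limma adjusted p = 0.0225), and in TPM as deposited the siMENA11a and siMENA libraries of SNORA73A overlapped, at 705 to 834 and 588 to 731 TPM. Reads of SNORA73A can be shared with its near-identical copy SNORA73B, so these values are uncertain. The other 4 (SNORA24, SNORA61, SNORA16A and SNORA9) were above 0 in some libraries only. Of these, SNORA61 of SNHG12 was listed at 0 in every control library and above 0 in every knockdown library. It measured 36.9 to 41.8 scaled TPM after siMENA11a and 22.03 to 37.3 after siMENA, and these ranges overlapped. The fit called SNORA61 higher in all 3 comparisons, but nothing is read from these calls. Its control values of 0 enter the calls against control directly. They enter the call between both knockdowns through the spread that the 3 groups share in the fit. Fold changes of SNORA61 against control are not given, because a listed 0 may be a failed estimate. SNORA24, SNORA16A and SNORA9 did not separate control from both knockdowns.

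Genes that overlap or adjoin the members did not share 1 direction with them. For this list and the lists below, the shares over all genes were 27.9% higher and 27.7% lower in siMENA11a against control. They were 23.7% and 25.8% in siMENA against control, and 29.5% and 29.2% in siMENA11a against siMENA. Of 5 tested, 2 were higher and 1 lower in siMENA11a against control, 0 higher and 2 lower in siMENA against control, and 3 higher and 1 lower in siMENA11a against siMENA. ZBTB37, a zinc finger gene opposite GAS5, averaged 4.29 ± 0.29 scaled TPM after siMENA11a, 4.05 ± 0.611 after siMENA and 3.85 ± 0.112 in control (SD, n = 3 each) and was not called. SLC3A2, an amino acid transporter subunit beside SNHG1, had a log2 fold change of 0.31 ± 0.035 in siMENA11a against control (limma adjusted p = 6.66e-05) and of -0.01 in siMENA against control, which became 0.11 after rescaling and 0.12 after quantile normalisation. RCC1, the nucleotide exchange factor of the GTPase Ran, which shares its locus with SNHG3, fell in both knockdowns, by 0.59 on the log2 scale after siMENA11a (limma adjusted p = 6.21e-06) and by 0.20 after siMENA (limma adjusted p = 0.00529). TRNAU1AP, which lies opposite SNHG12, fell by 0.59 after siMENA (limma adjusted p = 6.77e-05) and had a value of -0.14 after siMENA11a (limma adjusted p = 0.0876). ZNFX1, opposite ZFAS1, was higher by 0.22 ± 0.046 in siMENA11a against control (limma adjusted p = 0.00258), at 0.08 in siMENA against control, and at 0.14 in siMENA11a against siMENA, which turned to -0.073 in TPM as deposited.

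Other non-coding snoRNA hosts moved in both directions. Of 10 tested, 5 were higher and 4 lower in siMENA11a against control (median 0.15, against 0.01 over all genes), 2 higher and 5 lower in siMENA against control (median -0.20), and 4 higher and 3 lower in siMENA11a against siMENA (median 0.13). DANCR averaged 60.6 ± 3.90 scaled TPM after siMENA11a, 51.1 ± 3.38 after siMENA and 45.6 ± 1.55 in control (SD, n = 3 each), a log2 fold change of 0.41 for siMENA11a against control (limma adjusted p = 0.00027) and 0.16 for siMENA against control (limma adjusted p = 0.041), the second of which was lost on leaving out single libraries of each group (0.11 to 0.19). EPB41L4A-AS1 was higher by 0.60 after siMENA11a (limma adjusted p = 0.000283) and by 0.58 after siMENA (limma adjusted p = 0.000438). SNHG16 went the other way, with means of 54.4 ± 3.26 scaled TPM after siMENA11a, 78.0 ± 1.47 after siMENA and 91.4 ± 0.719 in control, and fell by 0.75 on the log2 scale after siMENA11a (limma adjusted p = 7.34e-07) and by 0.23 after siMENA (limma adjusted p = 0.00149). SNHG10 fell by 0.77 after siMENA11a (limma adjusted p = 2.72e-05) and by 0.55 after siMENA (limma adjusted p = 0.000284).

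Protein-coding genes that also host snoRNAs moved in both directions as well. Of 49 tested, 5 were higher and 26 lower in siMENA11a against control (median -0.10), 9 higher and 16 lower in siMENA against control (median -0.02), and 9 higher and 22 lower in siMENA11a against siMENA (median -0.05). The translation initiation helicase gene EIF4A2 averaged 121 ± 3.62 scaled TPM after siMENA11a, 62.2 ± 1.04 after siMENA and 54.9 ± 1.63 in control, a log2 fold change of 1.14 ± 0.034 for siMENA11a against control (limma adjusted p = 2.91e-08). The ribosomal protein gene RPL13A was higher by 0.24 after siMENA11a (limma adjusted p = 0.000652) and fell by 0.19 after siMENA (limma adjusted p = 0.00295). The poly(A)-binding protein gene PABPC4 averaged 13.9 ± 0.233 scaled TPM after siMENA11a, 50.4 ± 1.03 after siMENA and 46.7 ± 0.15 in control, and fell by 1.71 on the log2 scale after siMENA11a (limma adjusted p = 7.36e-10). NCL, which encodes nucleolin, fell by 0.91 after siMENA11a (limma adjusted p = 1.85e-07) and was at 0.02 after siMENA (limma adjusted p = 0.721).

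Of 14 tested translation genes with a TOP start that are not ribosomal proteins, 1 was higher and 7 lower in siMENA11a against control (median -0.10), 1 higher and 6 lower in siMENA against control (median -0.07), and 4 higher and 3 lower in siMENA11a against siMENA (median -0.03). PABPC1, a poly(A)-binding protein, was higher by 0.20 after siMENA11a (limma adjusted p = 0.000724) and by 0.18 after siMENA (limma adjusted p = 0.00157). NPM1, a nucleolar chaperone, fell by 0.34 after siMENA11a (limma adjusted p = 0.000107) and by 0.13 after siMENA (limma adjusted p = 0.0279), where quantile normalisation gave 0.039 and the call was lost without siMENA replicate 1 or 3 or control replicate 1 (-0.13 to -0.10). The initiation factor subunit EIF3F fell by 0.35 and by 0.36 (limma adjusted p = 0.0003 and 0.000359 for siMENA11a and siMENA). In siMENA11a against siMENA, PABPC1 and EIF3F differed by 0.02 and 0.00 on scaled TPM, which turned to -0.20 and -0.21 in TPM as deposited.

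Among snoRNP core and assembly proteins, which package and stabilise snoRNAs, 2 of 19 were higher and 11 lower in siMENA11a against control (median -0.15). The counts were 5 higher and 4 lower in siMENA against control (median 0.02) and 1 higher and 10 lower in siMENA11a against siMENA (median -0.13). NOP10, a core box H/ACA protein, was higher by 0.17 after siMENA11a (limma adjusted p = 0.00521) and fell by 0.15 after siMENA (limma adjusted p = 0.0115), where quantile normalisation turned the value to 0.10. The assembly factor gene ZNHIT3 was higher by 0.16 after siMENA11a (limma adjusted p = 0.0293, not called without any 1 of the siMENA11a libraries or without control replicate 2 or 3) and by 0.22 after siMENA (limma adjusted p = 0.00792). TCOF1, which encodes the nucleolar protein treacle, fell by 0.72 after siMENA11a (limma adjusted p = 6.93e-07) and was higher by 0.23 after siMENA (limma adjusted p = 0.000958). RUVBL2, an ATPase of snoRNP assembly, fell by 0.63 after siMENA11a (limma adjusted p = 1.84e-06) and by 0.58 after siMENA (limma adjusted p = 4.19e-06).

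Nonsense-mediated decay removes transcripts with a premature stop, the spliced RNAs of several hosts among them. Of 19 tested decay factors, 0 were higher and 9 lower in siMENA11a against control (median -0.07), 3 higher and 5 lower in siMENA against control (median 0.05), and 3 higher and 9 lower in siMENA11a against siMENA (median -0.12). The shares of all genes called either way were 55.6%, 49.4% and 58.7% in the same order of comparisons. PNRC2, a link between the decay factor UPF1 and decapping, averaged 28.5 ± 1.35 scaled TPM after siMENA11a, 69.3 ± 2.03 after siMENA and 58.6 ± 1.28 in control, and fell by 1.03 on the log2 scale after siMENA11a (limma adjusted p = 1.1e-07). CASC3, a component of the exon junction complex, fell by 0.70 after siMENA11a (limma adjusted p = 3.68e-07) and by 0.18 after siMENA (limma adjusted p = 0.00179).

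Protein-coding transcripts that have been reported as targets of this decay were higher after siMENA11a in 10 of 14 cases, with 0 lower (median 0.42). In siMENA against control 2 were higher and 7 lower (median -0.25), and in siMENA11a against siMENA 11 were higher and 0 lower (median 0.74). Over all genes, 27.9% were called higher and 27.7% lower in siMENA11a against control. The shares were 23.7% and 25.8% in siMENA against control, and 29.5% and 29.2% in siMENA11a against siMENA. ASNS, which encodes asparagine synthetase, averaged 32.8 ± 4.19 scaled TPM after siMENA11a, 16.6 ± 0.957 after siMENA and 15.3 ± 0.352 in control, a log2 fold change of 1.06 ± 0.083 for siMENA11a against control (limma adjusted p = 5.87e-06) and 0.11 for siMENA against control (limma adjusted p = 0.314). GABARAPL1, an autophagy gene, was higher by 0.64 after siMENA11a (limma adjusted p = 3.2e-06) and by 0.63 after siMENA (limma adjusted p = 4.47e-06), and its difference of 0.00 between both knockdowns turned to -0.21 in TPM as deposited. ASNS, ATF3, DDIT3 and SLC7A11 of this list are also known targets of the stress transcription factor ATF4. ATF4 is itself on the list, with a log2 fold change of 0.32 for siMENA11a against control and -0.58 for siMENA against control. Its value was 0.90 for siMENA11a against siMENA. The part of decay and of transcription in the values of this list was not tested.

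**Figure D4:**
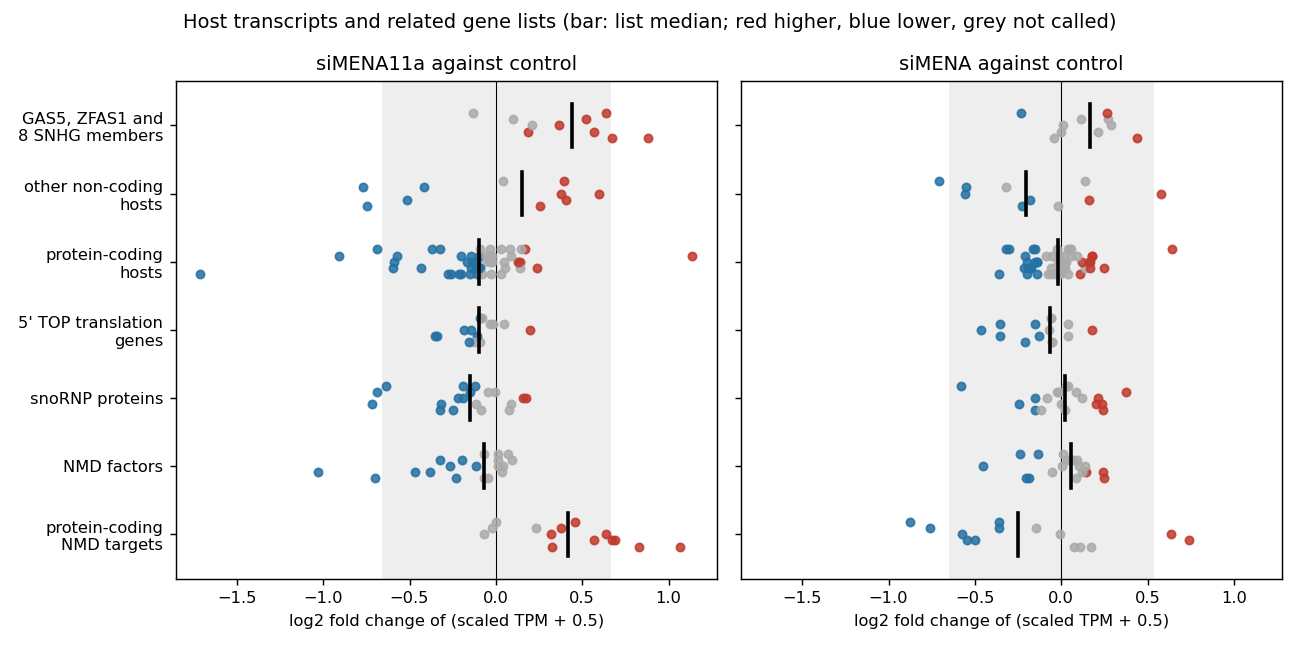
Log2 fold change (horizontal axis) of the genes of 7 lists (vertical axis) in siMENA11a against control and siMENA against control, with red points called higher, blue called lower, grey not called, black bars at the list median and a shaded band from the 5th to the 95th percentile of all 13498 genes. The members have a median of 0.44 after siMENA11a and 0.16 after siMENA, and the decay targets have medians of 0.42 and -0.25.

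Of 7 other genes named as growth arrest-specific in the table, 4 passed the filter on low values. Of these 4, 0 were higher and 2 lower in siMENA11a against control (median -0.15), 1 higher and 2 lower in siMENA against control (median -0.24), and 1 higher and 1 lower in siMENA11a against siMENA (median 0.05). GAS2L3, a cytoskeletal linker gene, fell by 0.50 after siMENA11a (limma adjusted p = 0.000885) and by 0.64 after siMENA (limma adjusted p = 0.000254). GAS2L1 fell by 0.33 after siMENA11a (limma adjusted p = 0.00174) and was higher by 0.26 after siMENA (limma adjusted p = 0.00736).

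Across the 9 libraries, the genes whose log2 deviations from their own mean lay nearest to those of GAS5 were GOLPH3L, PCTP, LACTB2, DNAJC12 and BAK1, out of 9008 genes outside the members with a mean of at least 5 scaled TPM. Their mean absolute log2 difference from GAS5 was 0.052, 0.069, 0.072, 0.073 and 0.074. GOLPH3L, the nearest, measured 18.5, 19.1 and 18.5 scaled TPM after siMENA11a, 14.5, 13.9 and 13.5 after siMENA and 10.8, 10.3 and 10.6 in control. ZFAS1 was the nearest of the other members at 0.10, followed by SNHG6 at 0.14, SNHG5 at 0.17 and SNHG8 at 0.17, with SNHG3 the farthest at 0.37. In all, 18 of the 9008 genes lay at least as near to GAS5 as ZFAS1 did.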

How the data were processed

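RNA of H2030 cells in 3 groups of 3 libraries was sequenced as read pairs from ribosome-depleted stranded libraries, per the labels' protocols. The authors deposited 1 table of TPM values for 29972 genes, and its name points to the tool RSEM. The submitters' processing notes instead name kallisto, and GRCh37, without role or version, so which tool made the values is not known. No source used here gives the aligner, the counting settings or how strand was handled. All 9 value columns were used (0 others were found). Depth is unknown, so no counting error is given.

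TPM was divided by a median-of-ratios size factor per library (12341 genes with a mean of at least 1 TPM and above 0 in all libraries). Tests ran on the 13498 genes whose scaled TPM averaged 0.5 or more, as log2(scaled TPM + 0.5), a scale that understates changes of low genes, with limma 3.58.1 (R 4.3.3), 1 fit of 3 group means, eBayes with a mean trend. Calls had a Benjamini-Hochberg adjusted p under 0.05 over all genes. The fit was tested on simulated data. Members and lists were chosen with earlier results of these data known, and lists share genes. Beside the members, the text names up to 2 genes called higher and 2 called lower per list, by lowest adjusted p in siMENA11a against control. It also names all neighbouring genes and the 5 genes nearest to GAS5. ATF3, ATF4, DDIT3 and SLC7A11 are named outside these rules. There were 18 alternatives per comparison. Sequences are from RefSeq (GRCh38.p14) and GENCODE 29 (GRCh38), read with Python 3.11.15.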

Additional observations from a re-analysis of the deposited data

How the results depend on the processing

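The count of called members stayed within 1.5 times its reported value under all alternatives but a pair: for siMENA against control it was 6 in TPM as deposited and 6 after rescaling without small and structured RNAs, against 3, and the cause was not tested. For siMENA11a against siMENA the lowest count was 4, against 6, on the limit of that rule. There, in TPM as deposited, SNHG1, SNHG6 and SNHG7 lost the higher call and SNHG15 was called lower (-0.22). Leaving out 1 library at a time gave 6 to 8 called members for siMENA11a against control, 3 to 4 for siMENA against control and 6 to 7 for siMENA11a against siMENA, and 68 to 82, 58 to 65 and 73 to 82 called genes of the other lists, against 81, 68 and 81. Without control replicate 1, SNHG3 was called lower in siMENA11a against control (-0.19) and SNHG8 higher in siMENA against control (0.41) and in siMENA11a against siMENA (0.25). Without control replicate 3, SNHG15 was called higher after siMENA11a (0.16) and after siMENA (0.18), and without siMENA11a replicate 1 or siMENA replicate 1, SNHG12 was called higher in siMENA against control (0.29 and 0.40). The siMENA call of DANCR was lost without siMENA11a replicate 1, siMENA replicate 1 or 3 or any control library, and that of ENAH in siMENA11a against control without siMENA11a replicate 2 or 3 or control replicate 1 or 2. In TPM as deposited the log2 fold change turned to -0.014 for ENAH and -0.03 for the uncalled SNHG15 in siMENA11a against control, and in siMENA11a against siMENA to -0.027 for SNHG1, -0.12 for the uncalled SNHG3, -0.21 for GABARAPL1, -0.20 for PABPC1, -0.21 for EIF3F and -0.073 for ZNFX1. For siMENA against control, SLC3A2 turned to 0.11 after rescaling and 0.12 after quantile normalisation, which also turned NOP10 to 0.10 and NPM1 to 0.039, and the cause was not tested. Uncalled values of SNHG1, SNHG5 and SNHG7 in siMENA against control, and of SNHG12 and SNHG15 in siMENA11a against siMENA, changed sign under 1 to 5 of the 18 alternatives. With replicate number as a replicate block, 7, 3 and 6 members and 75, 65 and 81 genes of the other lists were called in the 3 comparisons. Same-numbered libraries did not deviate together (correlations across genes of -0.065 to 0.058), so the numbers were not taken to pair the libraries. TPM holds no depth, which limits what can be said of low genes.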
